A study of Callithrix jacchus with 3 samples.

Results

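The 8 genes described here are core pluripotency transcription factors and their partners, measured by RNA sequencing in extended pluripotent stem cell-like (EPSC-like) cells of the common marmoset, a New World monkey. They were chosen by name, as POU5F1, SOX2, NANOG, SALL4, PRDM14, UTF1, DPPA2 and GDF3, and each of the 8 symbols matched 1 Ensembl gene ID among the 30811 genes of the deposited count files. The study's title says that the cells came from attempts to derive extended pluripotent stem cells from marmoset embryonic stem cells. There was 1 group of 3 libraries, replicates 1, 2 and 3, whose titles share the identifier No40 and differ only in the replicate number, and no control cells, agent, genotype, sex or age is named in the labels. The libraries may all come from 1 line, and no label says that they came from separate cultures, so every spread below is one between these libraries and may be technical.

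Pluripotent cells are held in their state by transcription factors that bind one another's genes. OCT4 (encoded by POU5F1) and SOX2 bind neighbouring DNA sites as a pair, and NANOG, a homeodomain protein, occupies many of the same sites. SALL4 and PRDM14 are zinc finger proteins that bring chromatin complexes to such genes, UTF1 and DPPA2 are chromatin-bound proteins of early embryonic and germline cells, and GDF3 is a secreted ligand of the TGF-beta family related to nodal.

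Total counts were 40593244 in replicate 3, 52327369 in replicate 1 and 55224475 in replicate 2. Replicate 3 stood apart from the others over the whole transcriptome. Of 13719 genes that averaged 1 CPM or more (CPM, counts per 1000000 counts), 70.7% differed between replicates 3 and 1 by more than the error of counting, and 71.3% between replicates 3 and 2, against 10.8% between replicates 2 and 1 (exact conditional binomial test, Benjamini-Hochberg adjusted over all genes of the pair). That test compares libraries and no conditions. Levels below are CPM scaled with TMM factors, which lay between 0.9957 and 1.005.

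All 8 members were expressed in every library. Each was called above 1 CPM and also above 10 CPM (edgeR quasi-likelihood F statistic, adjusted by Benjamini-Hochberg over 23432 genes, largest adjusted p = 3.56e-06, for DPPA2 at 10 CPM). Of all genes tested, 56% were called above 1 CPM and 37.6% above 10 CPM, and of the tested genes with a symbol 78.3% and 55.7%. Together the members took 0.243% of all counts in replicate 3, against 0.206% in replicate 1 and 0.212% in replicate 2. In bulk RNA, fewer cells that express a gene and less RNA of it per cell cannot be told apart.

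**Figure D1:**
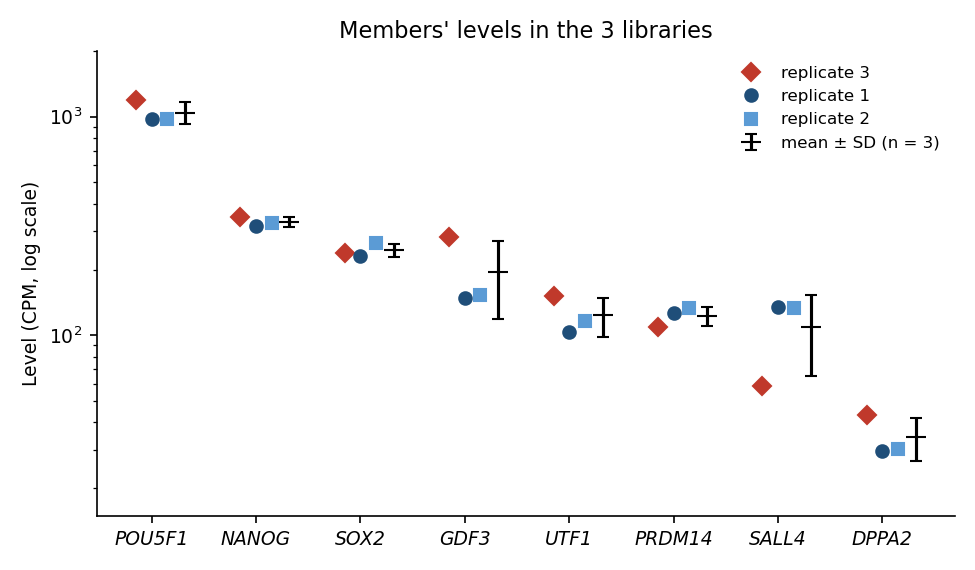
Level of each member in CPM (log scale, vertical axis), 1 point per library, with the mean and SD of the 3 libraries in black. Replicate 3 lies furthest from the other libraries for GDF3, at 281.3 CPM, and for SALL4, at 58.5 CPM.

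POU5F1 had 48314 counts in replicate 3, 50980 in replicate 1 and 53426 in replicate 2, which gave 1185, 974.5 and 971.6 CPM. Replicates 1 and 2 were almost equal and replicate 3 was the highest. The mean was 1044 ± 122 CPM (SD, n = 3), and by mean CPM the gene had rank 92 of the 23432 tested. NANOG stood at 349.3 CPM in replicate 3, 315.5 CPM in replicate 1 and 326.6 CPM in replicate 2. It was the least variable member, with a coefficient of variation of 5.21%, and 82.9% of the 13719 genes of at least 1 CPM varied more. SOX2 stood at 238.9 CPM in replicate 3, 231.8 CPM in replicate 1 and 265.3 CPM in replicate 2. Here replicate 2 was the highest, so SOX2 did not peak in replicate 3 as POU5F1 and NANOG did. Its coefficient of variation was 7.20%. How the authors treated reads that match several places is not given in the sources used here, so the levels of POU5F1 and NANOG, which have processed pseudogenes in humans, are uncertain.

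SALL4, whose protein binds the NuRD histone deacetylase complex, was the most variable member. It had 2384 counts in replicate 3, 7044 in replicate 1 and 7365 in replicate 2, or 58.5, 134.6 and 133.9 CPM. Replicates 1 and 2 were within counting error of each other, and the ratio of replicate 3 to replicate 1 was 0.436 (95% exact interval of counting error 0.416 to 0.457). The mean was 109 ± 43.8 CPM (SD, n = 3). The coefficient of variation of 40.2% rests on replicate 3 and was 0.374% without it. Of genes of at least 1 CPM, 3.56% had a log2 level in replicate 3 at least as far from the mean of replicates 1 and 2, in either direction.

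PRDM14, a PR-domain protein that in mice and humans also acts in germ cell formation, stood at 108.9 CPM in replicate 3, 126.3 CPM in replicate 1 and 133.5 CPM in replicate 2. It was lowest in replicate 3, like SALL4, by a smaller step. The ratio of replicate 3 to replicate 1 was 0.866 (95% interval 0.834 to 0.900). The mean was 123 ± 12.6 CPM (SD, n = 3).

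UTF1 stood at 151.3 CPM in replicate 3, 103.1 CPM in replicate 1 and 116 CPM in replicate 2, with a mean of 124 ± 24.9 CPM (SD, n = 3). DPPA2, whose protein pairs with DPPA4, stood at 43.3 CPM in replicate 3, 29.7 CPM in replicate 1 and 30.2 CPM in replicate 2. These chromatin-associated genes were highest in replicate 3, with ratios to replicate 1 of 1.47 (95% interval 1.42 to 1.53) for UTF1 and 1.46 (1.37 to 1.57) for DPPA2. DPPA2 was the lowest member in each library, at a mean of 34.4 ± 7.70 CPM (SD, n = 3), and 23.8% of the genes tested had a higher mean CPM. The coefficients of variation were 20.2% for UTF1 and 22.4% for DPPA2. Without replicate 3 they were 8.32% and 1.05%.

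GDF3, the ligand, had the largest increase in replicate 3 among the members. It had 11471 counts in replicate 3, 7718 in replicate 1 and 8414 in replicate 2, or 281.3, 147.5 and 153 CPM. Replicates 1 and 2 were again close. Replicate 3 was 1.92-fold replicate 1 (95% interval 1.86 to 1.97) and 1.85-fold replicate 2 (1.80 to 1.91). The mean was 194 ± 75.7 CPM (SD, n = 3), and the coefficient of variation of 39% was 2.58% without replicate 3. Of genes of at least 1 CPM, 1.65% stood at least as high in replicate 3 relative to the other libraries, on the log2 scale. In either direction, the measure given for SALL4, 7.86% were at least as far.

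Set side by side, the members did not move together in replicate 3. Relative to replicate 1, 6 of 8 were higher in replicate 3 (POU5F1, NANOG, SOX2, GDF3, UTF1 and DPPA2), where 22.2% of all genes were, and 2 were lower (PRDM14 and SALL4), where 25.5% of all genes were (exact conditional binomial test, Benjamini-Hochberg adjusted over 22703 genes, largest adjusted p = 0.0243, for SOX2). Relative to replicate 2, 5 were higher, with a background of 22.7%, and 3 were lower, SOX2 among them, with a background of 25.3% (22686 genes, largest adjusted p = 6.16e-11). These comparisons share replicate 3. The backgrounds include genes with few counts, for which small differences cannot be called. Of genes of at least 1 CPM, 70.7% differed between replicates 3 and 1, and 71.3% between replicates 3 and 2. Against both other libraries, 5 members were higher in replicate 3 and 2 lower, as were 28.1% and 35.8% of genes of at least 1 CPM. With a ratio of at least 1.5-fold asked for as well, GDF3 alone of the members was higher and SALL4 alone was lower, in both comparisons. The backgrounds at that size were 6.54% higher and 10.3% lower against replicate 1, and 7.09% and 10.2% against replicate 2. The call for SOX2 against replicate 1, at a ratio of 1.04 (95% interval 1.01 to 1.06), was lost with TMM library sizes (adjusted p = 0.0572) and with halved counts (adjusted p = 0.168).

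**Figure D2:**
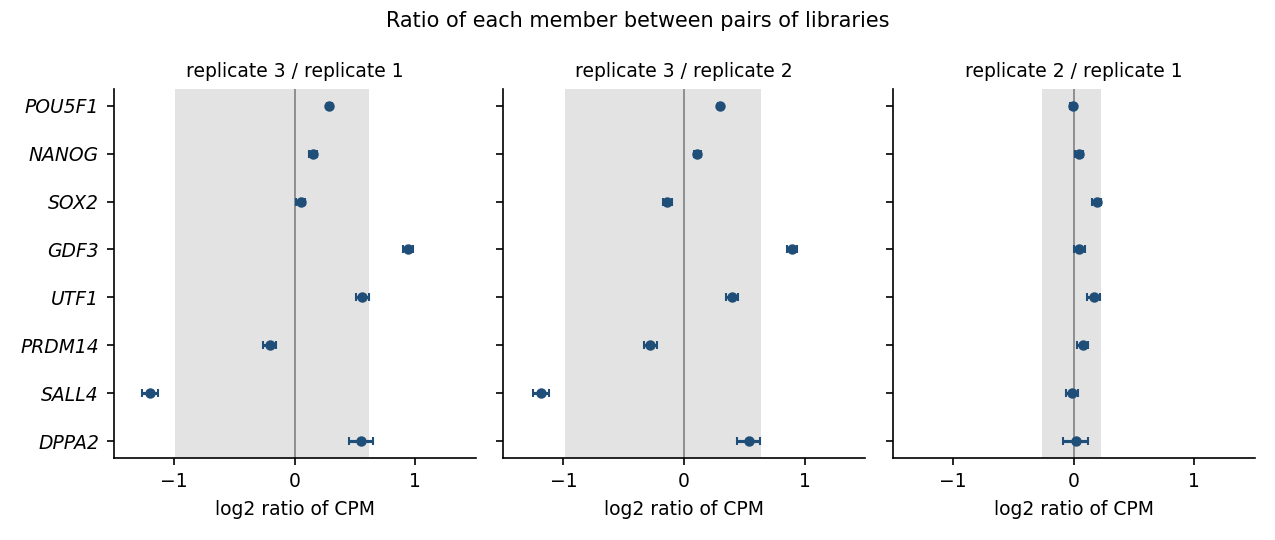
log2 ratio of CPM of each member (horizontal axis) between replicates 3 and 1, replicates 3 and 2, and replicates 2 and 1. Points carry 95% exact intervals of counting error, and the grey band spans the 5th to 95th percentile of genes of at least 1 CPM, from −0.99 to 0.62, from −0.98 to 0.64 and from −0.26 to 0.23. GDF3 and SALL4 lie outside the band in both comparisons with replicate 3, and all 8 members lie within it between replicates 2 and 1.

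Between replicates 2 and 1, 3 of 8 members differed, and each was higher in replicate 2, where 3.44% of 22502 genes were. Of genes of at least 1 CPM, 10.8% differed in this pair, in either direction. None was lower, as 3.8% of genes were, and none differed by 1.5-fold, as 1.12% did. SOX2 was 1.14-fold replicate 1 (95% interval 1.11 to 1.17, adjusted p = 1.32e-23, exact conditional binomial test). UTF1 was 1.12-fold (1.08 to 1.16, adjusted p = 1.56e-07). PRDM14 was 1.05-fold (1.02 to 1.09, adjusted p = 0.041), a call lost with halved counts (adjusted p = 0.538). POU5F1, SALL4 and DPPA2 had ratios of 0.993, 0.991 and 1.01, each with an interval that includes 1. GDF3, at 1.03-fold, was not called (adjusted p = 0.23, by the same exact test), though its unadjusted 95% interval of 1.001 to 1.066 leaves out 1. NANOG, at a ratio of 1.03 and an adjusted p of 0.0627, was called with TMM library sizes (adjusted p = 0.0268) and among genes that pass a filter on low counts (adjusted p = 0.047).

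The median gene of at least 1 CPM had a coefficient of variation of 12.8%. GDF3, UTF1, SALL4 and DPPA2 exceeded it, and POU5F1, NANOG, SOX2 and PRDM14 did not.

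Ratios between members within a library need no scaling between libraries. Gene lengths were not used here, so these are ratios of counts and not of transcripts, and only their change between libraries can be read. NANOG had 29.5% of the POU5F1 counts in replicate 3, 32.4% in replicate 1 and 33.6% in replicate 2. SOX2 had 20.2% of them in replicate 3, 23.8% in replicate 1 and 27.3% in replicate 2. Both factors were lowest against POU5F1 in replicate 3. SALL4 had 4.93% of the POU5F1 counts in replicate 3 and 13.8% in each of the other libraries. GDF3 had 23.7% in replicate 3, 15.1% in replicate 1 and 15.7% in replicate 2. The GDF3 to SALL4 ratio changed most of the 28 ratios between members, at 4.81 in replicate 3, 1.10 in replicate 1 and 1.14 in replicate 2. The UTF1 to DPPA2 ratio changed least, at 3.50 in replicate 3, 3.47 in replicate 1 and 3.85 in replicate 2, with an SD of 0.08 on the log2 scale (n = 3).

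**Figure D3:**
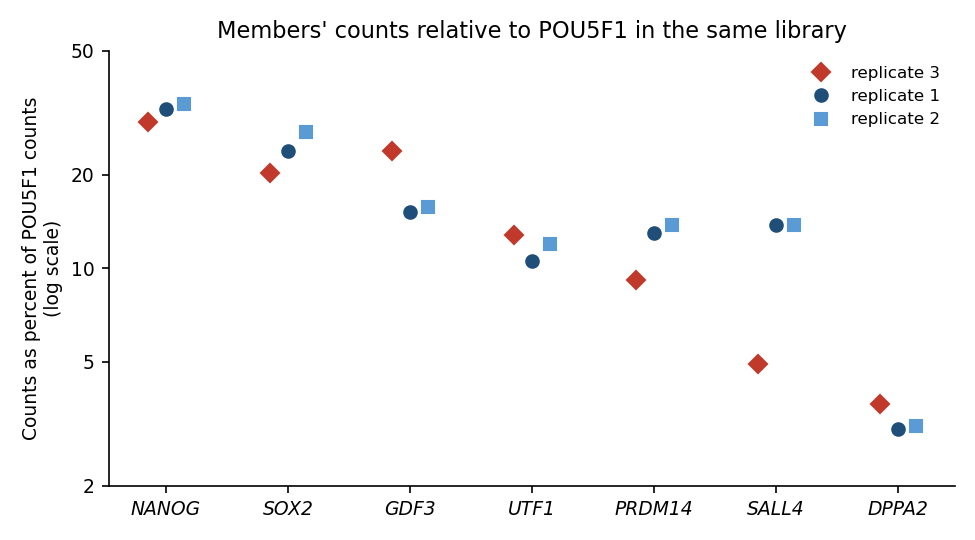
Counts of 7 members as a percentage of the POU5F1 counts of the same library (log scale, vertical axis), 1 point per library. SALL4 stands at 4.93% in replicate 3 and 13.8% in replicates 1 and 2, while DPPA2 lies between 3.05% and 3.65%.

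By counts, not corrected for length, the order of mean levels was POU5F1, NANOG, SOX2, GDF3, UTF1, PRDM14, SALL4 and DPPA2. Of the 28 pairs of members, 24 had the same order in all 3 libraries. The 4 that changed were SOX2 with GDF3, UTF1 with PRDM14, UTF1 with SALL4 and PRDM14 with SALL4, and in each it was replicate 3 that differed: without it, all 28 pairs kept 1 order. In replicate 3, GDF3 stood above SOX2, and UTF1 stood above PRDM14 and SALL4. Of the 7 neighbouring pairs in the order, POU5F1 with NANOG, NANOG with SOX2, GDF3 with UTF1, and SALL4 with DPPA2 held in each library, with an exact two-sided sign-flip permutation p of 0.25, the smallest that 3 libraries allow. The other neighbours, SOX2 with GDF3, UTF1 with PRDM14 and PRDM14 with SALL4, changed order between libraries (p = 0.5, 1 and 1 by the same exact test). With 3 libraries this test can call no pair different, so it gives no evidence for or against a difference. PRDM14 and SALL4 had 7340 and 7365 counts in replicate 2.

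The relatives and partners of the members that could be matched to an ID are described as lists. Of tested genes with a symbol, 78.3% were called above 1 CPM and 55.7% above 10 CPM, the background for the lists. Of the 3 other SALL family genes, each was called above 1 CPM, and each was lower in replicate 3 than in both other libraries, as SALL4 was. SALL2 stood at 123.9 CPM in replicate 3, 188.9 CPM in replicate 1 and 195.5 CPM in replicate 2. SALL3 stood at 4.10, 9.81 and 10.4 CPM, and SALL1 at 2.55, 7.99 and 8.24 CPM, in the same order of libraries. The median shift of these genes in replicate 3 was −1.30 on the log2 scale, beside −0.05 over genes of at least 1 CPM. Of 13719 such genes, 35.8% were lower in replicate 3 than in both other libraries and 28.1% higher (exact conditional binomial test, Benjamini-Hochberg adjusted). Of the 10 matched genes of the NuRD complex, all were above 1 CPM and 9 above 10 CPM, with 3 higher and 6 lower in replicate 3 than in both other libraries. CHD4, its chromatin remodelling ATPase, was the highest at 602 ± 57.9 CPM (SD, n = 3), and GATAD2B the lowest at 4.78 ± 1.81 CPM. The summed level of the NuRD list was 2388 CPM in replicate 3, 2451 CPM in replicate 1 and 2435 CPM in replicate 2.

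Of 6 matched partners of PRDM14, all were above 10 CPM, as were 55.7% of the tested genes with a symbol. In replicate 3, 5 were lower and 1 higher than in both other libraries, as were 35.8% and 28.1% of genes of at least 1 CPM. CBFA2T2, a corepressor that binds PRDM14, stood at 30.8 CPM in replicate 3, 37.4 CPM in replicate 1 and 41 CPM in replicate 2. The histone-binding gene RBBP4 was the highest of this list at 517 ± 7.95 CPM, and EED, a subunit of the polycomb complex that holds EZH2, the lowest at 16.7 ± 2.38 CPM (SD, n = 3). The list's median shift was −0.33 on the log2 scale.

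Most matched genes of the signalling pathway of GDF3 were lower in replicate 3, the library in which GDF3 was higher. Of 11 matched genes, 8 were above 1 CPM and 3 were not distinguished from it, and 8 were lower and 0 higher in replicate 3 than in both other libraries, as were 35.8% and 28.1% of genes of at least 1 CPM. The median shift of the list was −0.74 on the log2 scale, beside 0.90 for GDF3 itself. FOXH1, a transcription factor that carries nodal signals with SMAD proteins, was the highest at 82.4 ± 5.37 CPM (SD, n = 3). The ligand NODAL stood at 9.15 CPM in replicate 3, 10.1 CPM in replicate 1 and 8.86 CPM in replicate 2, so replicate 3 lay between the others. The receptor gene ACVR1C was the lowest of the list, at 0.0981 CPM in replicate 3, 0.956 CPM in replicate 1 and 0.709 CPM in replicate 2, and was not distinguished from 1 CPM. ACVR1C, counted among the 8 lower genes, had a mean of 0.588 CPM and so is outside the background share.

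Of the wider network, 15 of 24 listed genes were matched. Of these, 13 were above 10 CPM, ESRRB was not distinguished from 1 CPM at 0.811 ± 0.133 CPM, and NR0B1 was below it at 0.110 ± 0.131 CPM (SD, n = 3). TRIM28, a corepressor of retroelements, was the highest at 1725 ± 49.2 CPM. In replicate 3, 4 of the 15 were higher and 6 lower than in both other libraries, close to the 28.1% and 35.8% among genes of at least 1 CPM, and the median shift was −0.22. Of 4 matched POU family genes, 4 were above 1 CPM, POU2F1, a widely expressed relative of POU5F1, was the highest at 45.4 ± 6.29 CPM, and POU2F2 the lowest at 2.63 ± 0.955 CPM (SD, n = 3). In replicate 3, 2 of the 4 were higher than in both other libraries and 0 lower, and the median shift was 0.27. Among genes of at least 1 CPM, 28.1% were higher and 35.8% lower in this way. The direct partners and relatives DPPA4, TDGF1 and SOX3, and the rest of the SOX list, had no matched ID and were not analysed here.

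**Figure D4:**
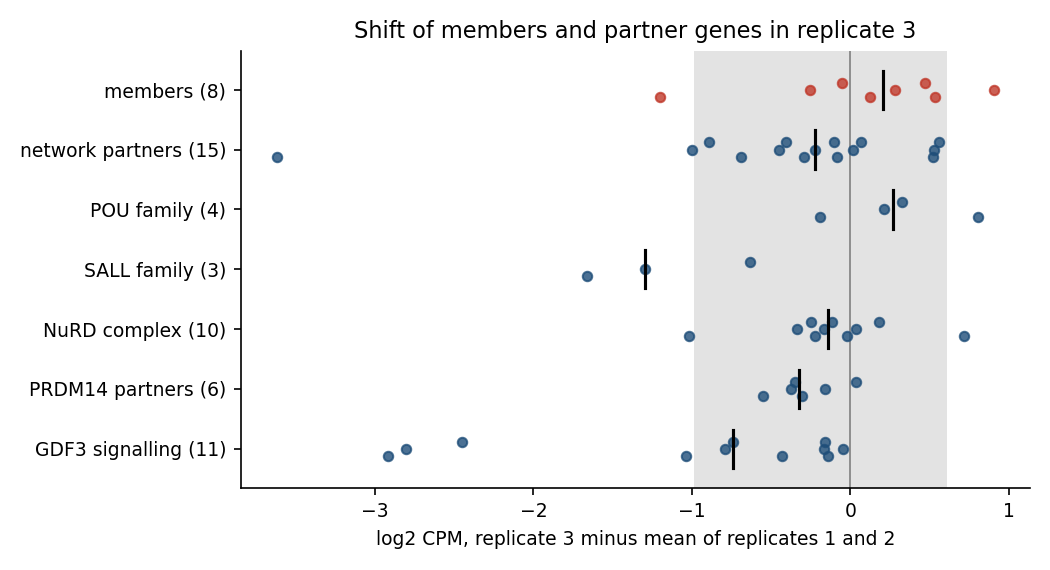
Shift of each gene in replicate 3, as log2 CPM minus the mean log2 CPM of replicates 1 and 2 (horizontal axis), for the members and 6 partner lists, with the number of matched genes in brackets and the list median as a black bar. The grey band spans the 5th to 95th percentile of genes of at least 1 CPM, from −0.99 to 0.61. The members reach from −1.20 for SALL4 to 0.90 for GDF3, and the point furthest to the left is NR0B1, which had 0 counts in replicate 3, 4 in replicate 1 and 14 in replicate 2.

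For each member, the nearest matched coding gene on either side was found by the RefSeq gene order of assembly calJac240_pri. These genes were chosen after the members' values were seen and are given with no test. Each lay 1 to 6 coding genes from its member, except DDX39B, at 43 from POU5F1. The nearest matched coding genes on either side of SALL4 were ATP9A, at 15.6 CPM in replicate 3, 24 CPM in replicate 1 and 24.5 CPM in replicate 2, and ZFP64, at 47.4, 71.8 and 72.9 CPM in the same order. Both were lower in replicate 3, by 0.64 and 0.61 on the log2 scale, a smaller step than the 1.20 of SALL4. Those beside PRDM14 were SLCO5A1, at 1.96, 3.69 and 3.86 CPM, and NCOA2, at 12.4, 25.2 and 25.8 CPM, and they were lower in replicate 3 by 0.94 and 1.04, a larger step than the 0.25 of PRDM14. APOBEC1, next to GDF3, had no counts. GDF3 and NANOG were the nearest matched coding genes to each other on 1 side. They shared a direction in replicate 3 but not its size, with shifts of 0.90 and 0.12. On the other side of NANOG, FOXJ2 was lower, with a shift of −1.01. Beside SOX2, at −0.05, DNAJC19 had a shift of 0.44 and ATP11B one of −0.46. Beside UTF1, at 0.47, KNDC1 and TUBGCP2 had shifts of 0.45 and 0.16, and beside POU5F1, at 0.28, TCF19 and DDX39B had shifts of 0.32 and 0.05. Beside DPPA2, at 0.53, NECTIN3 had a shift of −0.38, and MORC1 stood between 0.0573 and 0.145 CPM. These nearest matched genes thus shared the member's direction in some cases and not in others.

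The genes whose profile over the 3 libraries was most like that of POU5F1 were TAF10, FSD1 and PSMG3, by the Euclidean distance of centred log2 CPM among 7167 genes with a symbol and a mean of at least 10 CPM. Their distances were 0.0020, 0.0022 and 0.0026. TAF10, the closest, stood at 44.1 CPM in replicate 3, 36.3 CPM in replicate 1 and 36.2 CPM in replicate 2. Those nearest to NANOG were CTNNBL1, KTN1 and CDK7, at distances of 0.0030, 0.0045 and 0.0054, and those nearest to SOX2 were SPINDOC, NPL and MMP15, at 0.011, 0.015 and 0.016. With 3 libraries many genes share a profile: 1050 genes lay within 0.1 of POU5F1, 1257 of NANOG and 252 of SOX2.

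The members' levels were set beside markers of pluripotent cells and of other cell types. All 11 matched pluripotency markers, the members among them, were above 10 CPM, and their summed level was 6533 CPM in replicate 3, 6168 CPM in replicate 1 and 6357 CPM in replicate 2. Of tested genes with a symbol, 78.3% were above 1 CPM and 55.7% above 10 CPM. The 11 moved apart, with 7 higher and 3 lower in replicate 3 than in both other libraries. DNMT3B, the highest, stood at 2734 CPM in replicate 3, 2628 CPM in replicate 1 and 2703 CPM in replicate 2. LIN28A was lower in replicate 3, at 350.3 CPM, against 674 and 725.2 CPM in replicates 1 and 2. The summed level of 6 endoderm markers was 8.58 CPM in replicate 3, against 22.9 CPM in replicate 1 and 25.3 CPM in replicate 2, with 3 of 6 above 1 CPM, 4 of 6 lower in replicate 3 than in both other libraries, and AFP without counts in any library. That of 6 trophectoderm and amnion markers was 14.2 CPM in replicate 3, against 33.7 and 34.2 CPM in replicates 1 and 2, with 4 of 6 above 1 CPM, 4 of 6 lower in replicate 3 than in both other libraries, 1 of 6 higher, and CDX2 and TP63 at 0 counts in replicate 3. The higher one was the keratin gene KRT7, at 9.86 CPM in replicate 3, 7.80 CPM in replicate 1 and 8.24 CPM in replicate 2. CDX2 had 25 counts in replicate 1 and 29 in replicate 2, and TP63 had 2 and 6. TP63 was not called different between replicate 3 and either other library. The summed level of 7 mesenchyme and fibroblast markers was 572 CPM in replicate 3, against 818 and 764 CPM. Most of it was COL1A1, at 404, 546 and 516 CPM in the same order of libraries. Of the 7, 6 were above 1 CPM and 6 were lower in replicate 3 than in both other libraries. The share of genes of at least 1 CPM that were lower in this way was 35.8%, and 28.1% were higher. Some markers counted as lower, CDX2 among them, averaged below 1 CPM and are outside that background. These sums moved with the lower SALL4 and the higher GDF3 of replicate 3, and their part in those differences was not tested.

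Sums of the remaining marker lists differed less between libraries. The sum of 6 primitive streak and mesoderm markers was 12.3 CPM in replicate 3 and 14.3 and 11.8 CPM in replicates 1 and 2, with 3 of 6 above 1 CPM, 1 higher and 1 lower in replicate 3 than in both other libraries, and MSGN1 without counts. Its members moved apart, with TBXT at 7.68 CPM in replicate 3 and 6.19 and 4.60 CPM in replicates 1 and 2, and EOMES at 0.466 CPM in replicate 3 and 2.29 and 2.66 CPM. The sum of 5 germ cell markers was 50.3 CPM in replicate 3 and 54.2 and 58.8 CPM in replicates 1 and 2, with 3 of 5 above 1 CPM, and 1 higher and 2 lower in replicate 3 than in both other libraries. These markers moved apart as well. TFAP2C, most of the sum, stood at 28.0 CPM in replicate 3 and 37.7 and 42.1 CPM in replicates 1 and 2. DND1, the higher one, stood at 17.3 CPM in replicate 3 and 11.5 and 12.2 CPM. The sum of 6 neuroectoderm markers was 2.53 CPM in replicate 3 and 2.64 and 2.35 CPM in replicates 1 and 2, with 1 of 6 above 1 CPM. A count of 0 allows up to 0.0739 CPM in replicate 3, 0.0573 CPM in replicate 1 and 0.0543 CPM in replicate 2, taken as 3 counts of the total and covering counting error only.

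**Figure D5:**
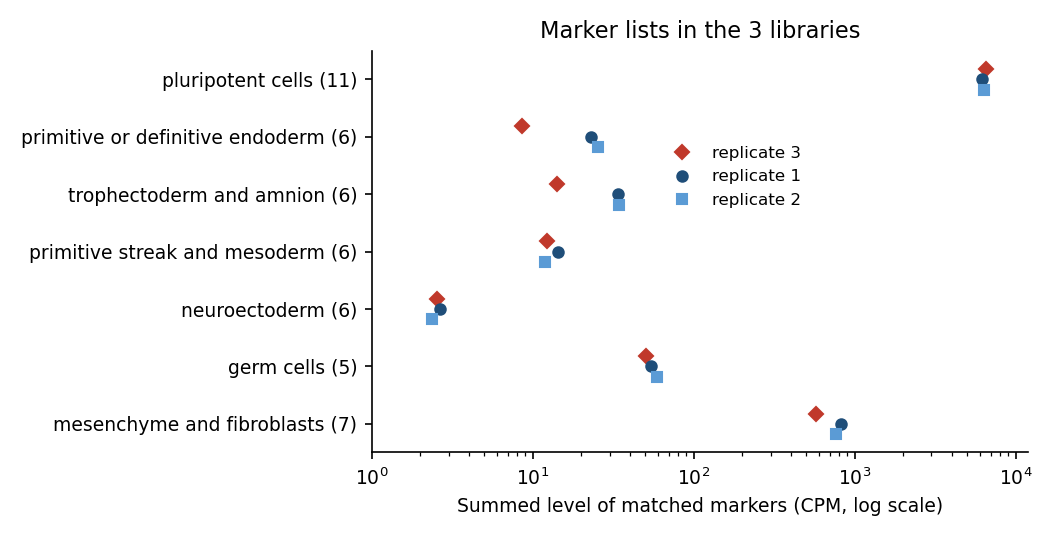
Summed level of the matched markers of each list in CPM (log scale, horizontal axis), 1 point per library, with the number of matched markers in brackets. The pluripotency sums lie between 6168 and 6533 CPM, while the endoderm sum is 8.58 CPM in replicate 3 and at least 22.9 CPM in the other libraries.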

How the data were processed

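Total RNA from 3 libraries of EPSC-like cells was sequenced. The tools named in the submitters' processing notes are featureCounts 1.5.2, STAR 2.5.3a and Trim Galore 0.4.0. Build, annotation, strand setting and handling of shared reads were not given in the sources used here, so reads of overlapping or antisense genes may be mixed. The authors deposited raw counts per Ensembl gene ID, without normalization. Symbols were matched to 12660 of 30811 IDs. Members and lists were chosen with earlier results of these data known, and genes were named by a fixed rule: all members, the highest and lowest gene of each partner list, genes below 1 CPM and direct partners, and the 3 nearest profiles of POU5F1, SOX2 and NANOG. For cell type markers, sums and genes at 0 are given, except 1 gene not reported here.

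CPM were computed with TMM library sizes (edgeR 4.0.16, R 4.3.3). An intercept-only quasi-likelihood model over 23432 genes with at least 1 count set each level against 1 and 10 CPM, two-sided. As glmQLFTest takes no model of 1 column, F came from the deviances of glmQLFit. Pairs of libraries were compared with an exact conditional binomial test given the total counts, two-sided. P-values were adjusted by Benjamini-Hochberg at 0.05. Ratios between libraries use total counts, and log2 shifts a prior count of 0.5. Both tests were tested on simulated data. Intervals cover counting error only, as reads carry no molecular identifiers. Figures used matplotlib 3.10.9. Alternatives were DESeq2 1.42.0, other scalings, halved counts, a fold minimum, a filter on low counts and leaving out each library.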

Additional observations from a re-analysis of the deposited data

How the results depend on the processing

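All 8 members remained above 1 CPM and above 10 CPM with DESeq2 size factors, total counts, the DESeq2 Wald test, a filter on low counts and without each replicate in turn. Fits on 2 libraries drew the spread from the trend over genes, so their p-values may be too small for variable genes. With at least 1.5-fold asked for, 2 of 8 members differed in replicate 3 from replicate 1, 2 from replicate 2, and 0 in replicate 2 from replicate 1, against 8, 8 and 3 without it. The number was 7 to 8, 8 and 2 to 4 under TMM library sizes, halved counts and the filter. The pairs of members in 1 order were 24 to 28 of 28 when 1 library was left out. The members with a larger coefficient of variation than the median gene were 4 of 8 under each scaling and with replicates 1 and 2 summed, and 3 to 4 without 1 library, an alternative chosen after seeing the data. The shifts of the members in replicate 3 kept their sign under each scaling. Levels per coding length were not run, as no lengths were at hand. No paired analysis was possible because the libraries form 1 group.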
